A study of Homo sapiens with 6 samples.

Results

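The cyclin-dependent kinase (CDK) inhibitors are 7 genes in the human genome: CDKN1A, CDKN1B and CDKN1C of the Cip/Kip family and CDKN2A, CDKN2B, CDKN2C and CDKN2D of the INK4 family. To understand whether the chromatin at these genes was open in HLF cells, and whether its accessibility moved after menin inhibition, the ATAC-seq peak lists were read at each of the 7 loci. Every peak region within 1 kb of an annotated transcription start of a gene, inside the gene body or within 10 kb of the gene was taken (GENCODE release 44, hg38), whatever its value. This gave 26 sites out of the 166021 sites in the whole series, at 7 of 20033 protein-coding genes. Of the 26 sites, 10 were promoter sites, 4 lay in a gene body and 12 in the flanks.

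HLF is a cell line from a human liver tumor. Vehicle (DMSO) libraries 1 to 3 were compared with libraries 1 to 3 of cells given 5 µM SNDX-5613 (revumenib), an inhibitor of the interaction between menin and the histone methyltransferase MLL1, all in batch 1. The labels give 24 hours of treatment and the study's methods describe a longer one, so the duration is uncertain. By the methods, each replicate was 1 dish of cells split into a treated and an untreated part, and p-values measure only the spread between these libraries.

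CDK inhibitors hold cells at checkpoints of the cell cycle. The Cip/Kip proteins bind complexes of cyclins with CDK2, and also act as assembly factors for cyclin D with CDK4 or CDK6, whereas the INK4 proteins bind CDK4 and CDK6 directly and keep them from cyclin D, so that the retinoblastoma protein stays unphosphorylated and E2F factors stay silent. Menin, the product of MEN1, recruits MLL1 to promoters, where MLL1 writes trimethylation of histone H3 lysine 4, and in pancreatic endocrine cells CDKN1B and CDKN2C are known targets of this complex.

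Accessibility was read as a percentile: within each library, the site's place from 0 to 100 by the −log10 p of its strongest summit, among the 33405 sites called in every library (shared sites). A site was counted as higher or lower after treatment where the 3 percentiles of a group all lay beyond the 3 of the other; the exact permutation test has 10 distinct splits here and cannot give a p below 0.1. The libraries held 40568 to 113675 peak regions. SNDX-5613 replicate 3 stood apart with the 40568 regions and a background pileup of 16.2% of the median of the other 5 libraries. Values with and without it are given for the shared promoter sites and for sites whose groups did not overlap. Wherever 1 library is left out, 2 are compared with 3, and groups then separate more readily. Markers of other cell types were checked at promoters. Among 8 hepatocyte genes, only FOXA1 had a promoter peak in every library, and ALB, APOA1 and HNF4A, which define hepatocytes, had none in any. APOB and TTR had one in 3 DMSO and 2 SNDX-5613 libraries each, and SERPINA1 and FOXA2 in 1 library of each group. All 4 epithelial and all 4 mesenchymal genes had one in every library, and 0 of 2 leukocyte and 0 of 2 endothelial genes did.

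All 7 CDK inhibitor genes had a promoter peak in every library, where 63.4% of all protein-coding genes did. For CDKN2A the peak lay at upstream starts, and the start of the inhibitor p16 (INK4a) lay under no region in any library. No locus was without peaks. Of the 26 sites, 15 were shared by all 6 libraries, 3 were seen in all but the shallow SNDX-5613 replicate 3, 4 in a single library and 4 in other combinations. After treatment, 2 of the 15 shared sites were higher in all 3 libraries (both at CDKN1A), where 8.54% of all shared sites were, and 2 were lower (both at CDKN1B), where 8.08% were. Of the 9 shared promoter sites, 1 was higher against a background of 7.05% of shared protein-coding promoter sites, and 1 was lower against 8.1%. No site was gained in all 3 treated libraries, where 0.147% of all sites were, and 1 was lost (inside CDKN2A), where 1.18% were. The median difference over the 15 sites was −1.31 percentile points, beside −0.0933 over all shared sites, with 5 higher and 10 lower means.

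In limma on normal scores of the ranks, fitted over all 33405 shared sites, 0 of the 15 member sites passed an adjusted p of 0.05 in either direction, where 0.177% of all sites were called higher and 0.018% lower. At an unadjusted p under 0.05 stood 1 of the 15, the CDKN1A promoter, and 3322 of all 33405 sites.

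**Figure D1:**
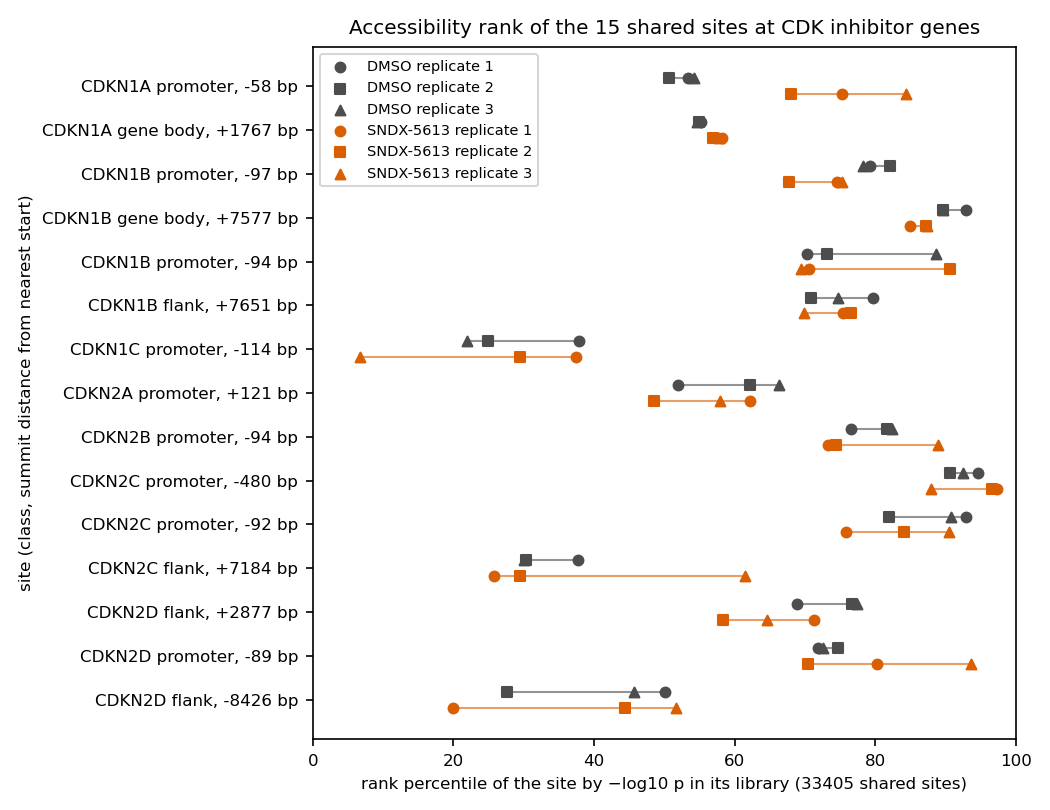
Percentile by −log10 p among the 33405 shared sites (horizontal axis, 0 to 100) for each of the 15 shared member sites (rows), with 1 point per library in DMSO (grey) and SNDX-5613 (orange) and a line from the lowest to the highest of each group. The 3 SNDX-5613 points of the CDKN1A promoter lie between 68.0 and 84.4, to the right of the DMSO points at 50.7 to 54.2, while at most other rows the groups overlap.

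CDKN1A encodes p21, the inhibitor that p53 induces after DNA damage. Its promoter carried the largest difference among the member sites. The gene lies on the plus strand of chromosome 6, and the RefSeq promoter window (GRCh38.p14, chr6:36678464-36678763, plus strand, 250 bases before the start and 50 after) is shown because the summit of the peak falls inside it. Capitals mark GGGCGG, the core of the GC box bound by SP and KLF factors.
CDKN1A promoter: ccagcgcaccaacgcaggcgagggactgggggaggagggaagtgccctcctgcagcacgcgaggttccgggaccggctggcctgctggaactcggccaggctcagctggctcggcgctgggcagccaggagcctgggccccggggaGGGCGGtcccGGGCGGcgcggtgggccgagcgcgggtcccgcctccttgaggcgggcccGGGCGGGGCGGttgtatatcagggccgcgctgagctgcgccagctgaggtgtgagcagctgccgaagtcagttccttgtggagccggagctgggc
The window held 4 copies of GGGCGG and none of CCAAT on either strand, with overlapping copies counted apart, and 74.3% of its bases were G or C. Across 35116 RefSeq promoter windows of 300 bases, 45.0% held GGGCGG and 34.6% held CCAAT, the core of the NF-Y site.

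The promoter site of CDKN1A spanned chr6:36678391-36679618, with its strongest summit 58 bp before the nearest annotated start and 62 bp before the MANE Select start, the reference transcript agreed by RefSeq and Ensembl. The start of DINOL, a noncoding RNA induced with p21, also lay within 1 kb. The percentiles were 53.3, 50.7 and 54.2 in DMSO replicates 1 to 3 and 75.3, 68.0 and 84.4 in SNDX-5613 replicates 1 to 3. Every treated library was above every DMSO library, and the shallow SNDX-5613 replicate 3 was the highest. The means were 52.7 ± 1.84 and 75.9 ± 8.20 (SD, n = 3 each), a difference of 23.1 points with p = 0.1 in the exact two-sided permutation test, the smallest it can give. The difference was larger than at 99.2% of all shared sites and 99.4% of shared promoter sites. On the scale of limma it was 0.65 normal scores (SE 0.175, 95% interval 0.26 to 1.05), with an unadjusted p of 0.00468 and an adjusted p of 0.253, so the promoter did not pass the threshold over all sites. Over 12 alternatives the limma adjusted p ranged from 0.0678 to 0.883. Where peaks had to cover a set share of a site, this promoter site was no longer shared, so that setting is not among the 12.

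The reads stacked at this summit were then compared, scaled for depth. The pileup was 88, 112 and 110 in DMSO and 160, 146 and 34 in SNDX-5613, and divided by the median pileup of the shared sites in each library it was 1.49, 1.42 and 1.47 in DMSO and 2.29, 2.00 and 2.83 in SNDX-5613. The groups overlapped in raw pileup, through the shallow replicate 3, and did not on the scaled values, where the mean log2 ratio was 0.69 higher after treatment. The deposited −log10 p itself was 55.0, 69.0 and 66.7 in DMSO and 112, 88.0 and 27.0 in SNDX-5613, the last of these from the shallow replicate 3. Without SNDX-5613 replicate 3, ranks over the 59985 sites shared by the other 5 libraries still had both treated libraries above all DMSO libraries, with a difference of 11.6 points. When each library was ranked over its own full list of regions, the difference was 6.20 points. In bulk libraries, more cells with an open promoter and more open chromatin per cell cannot be told apart.

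**Figure D2:**
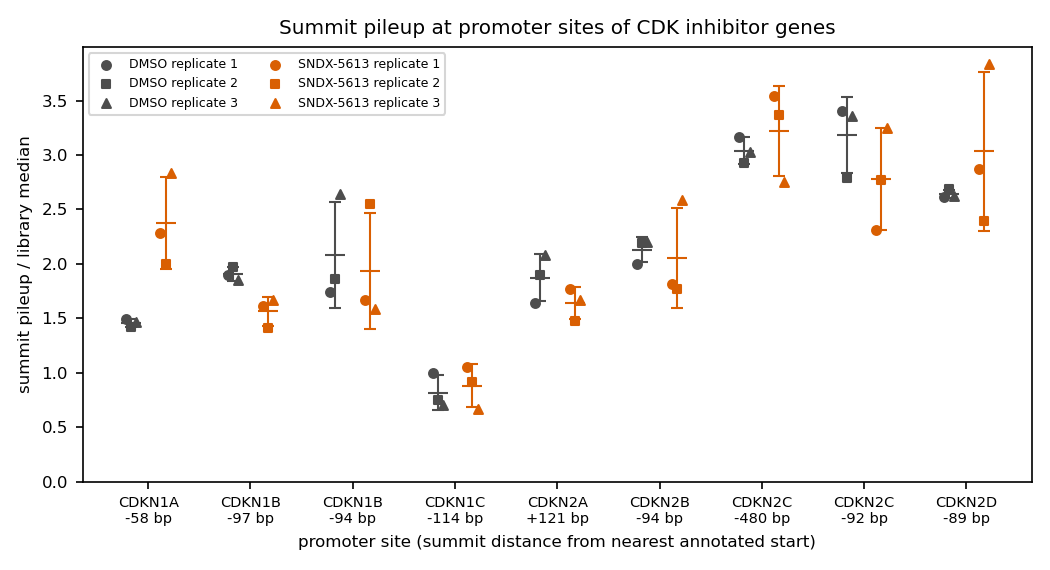
Summit pileup divided by the library's median over the shared sites (vertical axis, ratio) at the 9 shared promoter sites of the 7 genes, with 1 point per library and bars at the mean ± SD of each group. The CDKN1A points lie at 1.42 to 1.49 in DMSO and 2.00 to 2.83 in SNDX-5613, and at CDKN1C all points lie near or below 1.06.

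The other shared site at CDKN1A lay inside the gene in an exon, 1767 bp past the nearest start, at chr6:36680199-36680757. Percentiles were 55.3, 54.9 and 54.6 in DMSO and 58.2, 56.9 and 57.7 in SNDX-5613. The groups did not overlap, but the difference of 2.66 points (p = 0.1, exact permutation test) was above that of no more than 67.5% of all shared sites, and limma gave an adjusted p of 0.902. Ranked over each library's own list, the percentiles were 82.2, 86.2 and 83.7 in DMSO and 86.7, 84.8 and 64.7 in SNDX-5613. There the groups overlapped and the limma shift was −0.16, so the call and the direction at this site depend on the ranking. In the main ranking the limma shift was 0.068, and 0.059 without SNDX-5613 replicate 3. A flank site at chr6:36672109-36672232 was called in SNDX-5613 replicate 1 alone. The 3 upstream starts of CDKN1A, about 2 kb before the MANE start, were under no region in any library, while 4 of its 8 annotated starts were under a region in all 6.

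CDKN1B encodes p27, which accumulates in resting cells and is a known menin target. Of its 4 shared sites, 2 were lower in all 3 treated libraries, neither past the limma threshold. The gene has starts far apart on the plus strand of chromosome 12, and the main promoter is shown (RefSeq, GRCh38.p14, chr12:12717118-12717417, plus strand) because it holds both motifs. Capitals mark CCAAT, its reverse complement ATTGG and GGGCGG.
CDKN1B promoter: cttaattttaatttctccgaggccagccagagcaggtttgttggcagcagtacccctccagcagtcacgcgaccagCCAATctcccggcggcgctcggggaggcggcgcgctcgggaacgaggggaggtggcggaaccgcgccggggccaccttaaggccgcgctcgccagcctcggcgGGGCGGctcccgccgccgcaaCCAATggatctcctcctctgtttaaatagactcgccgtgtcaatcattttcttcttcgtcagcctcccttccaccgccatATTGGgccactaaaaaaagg
CCAAT on either strand occurred 3 times, on both sides of the start, and GGGCGG once. Of the 9 RefSeq promoter windows of the member genes, 3 held CCAAT (CDKN1B, CDKN2C and CDKN2D) and 7 held GGGCGG.

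The site over this main promoter (chr12:12716776-12718060, summit 94 bp before the MANE start) did not separate the groups. Its percentiles were 70.2, 73.1 and 88.6 in DMSO and 70.6, 90.6 and 69.4 in SNDX-5613. DMSO replicate 3 and SNDX-5613 replicate 2 were high and the other 4 libraries lay close together, so the spread was within the groups. Means were 77.3 ± 9.89 and 76.9 ± 11.9 (SD, n = 3 each), with p = 0.9 in the exact permutation test. The difference was −0.42 points, and 1.88 points without SNDX-5613 replicate 3, with the groups overlapping in both.

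An upstream promoter site of CDKN1B, chr12:12696002-12697003, had its summit 97 bp before another annotated start and 21118 bp before the MANE start. The start of GPR19, an orphan receptor gene on the other strand, was within 1 kb. Percentiles were 79.3, 82.0 and 78.3 in DMSO and 74.5, 67.8 and 75.3 in SNDX-5613. All treated libraries were below the DMSO libraries. The means were 79.9 ± 1.93 and 72.5 ± 4.12 (SD, n = 3 each), a difference of −7.34 points with p = 0.1 in the exact permutation test and a limma adjusted p of 0.633. On the pileup scale the log2 ratio was −0.29, and without SNDX-5613 replicate 3 the difference was −4.89 points with the groups still apart.

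A site between these promoters, inside the gene and outside its exons at chr12:12704697-12704957, had the highest mean percentile at CDKN1B in each group. Percentiles were 92.9, 89.7 and 89.7 in DMSO and 84.9, 87.1 and 87.3 in SNDX-5613. The groups did not overlap, with a difference of −4.31 points (p = 0.1, exact permutation test) and a limma adjusted p of 0.640. At 25.7% of all shared sites the difference was lower still. The limma shift was −0.23, and −0.22 without SNDX-5613 replicate 3. A flank site at the start of APOLD1 had a difference of −1.15 points (p = 0.8, exact permutation test). Its pileup over the library median was above that of the site inside the gene in every library. In DMSO it was 2.80, 2.33 and 2.59, beside 2.22, 2.08 and 2.04 at the site inside the gene. A weaker flank site was called in DMSO replicates 1 and 3 and SNDX-5613 replicate 2.

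CDKN1C encodes p57, an imprinted Cip/Kip inhibitor at the end of chromosome 11p. Its shared promoter site had the lowest DMSO mean percentile of the 9 shared promoter sites. The site at chr11:2885577-2886103, 114 bp before the MANE start, had percentiles of 37.8, 24.9 and 21.99 in DMSO and 37.4, 29.4 and 6.70 in SNDX-5613. The groups overlapped, and SNDX-5613 replicate 3 had the lowest rank, with a pileup of 8 reads. Divided by the library median its pileup was 0.667, beside 1.00, 0.747 and 0.707 in DMSO, and on that scale the mean log2 difference between the groups was 0.098. The difference was −3.74 points (p = 0.8, exact permutation test), and without SNDX-5613 replicate 3 it was 6.70 points with the groups still overlapping. Flank sites at the start of SLC22A18AS and 6464 bp upstream were called in the 5 deeper libraries, and a further promoter site was called in SNDX-5613 replicate 1 alone. No RefSeq promoter window was at hand for CDKN1C.

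**Figure D3:**
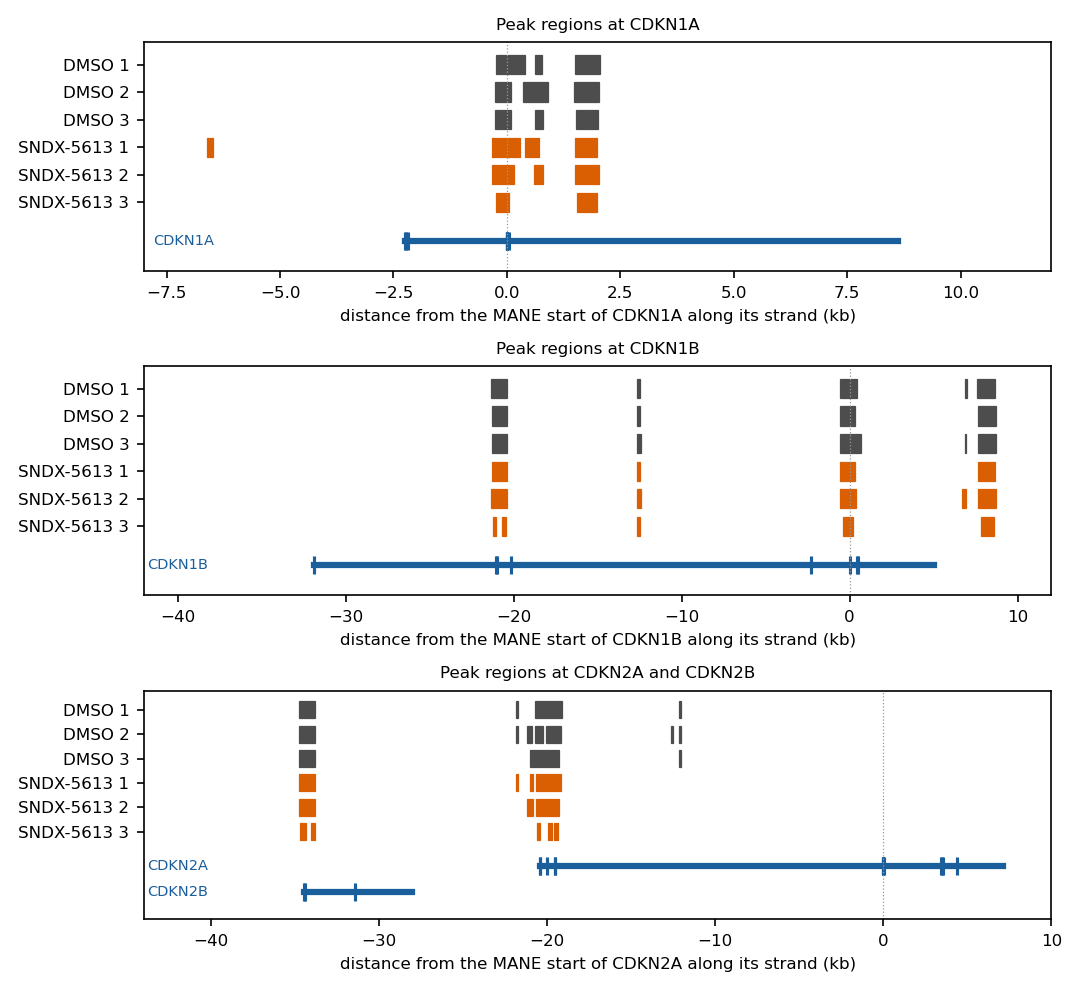
Peak regions of each library (rows; boxes from start to end) at CDKN1A, CDKN1B and at CDKN2A with CDKN2B, by distance in kb from the MANE start along the gene's strand; blue lines are the genes and ticks their annotated starts. The CDKN1A start lies under a region in all 6 libraries, and around the MANE start of CDKN2A no library has a region.

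CDKN2A encodes 2 proteins from separate first exons: p16 (INK4a), the CDK4 and CDK6 inhibitor, and ARF, which stabilises p53 by binding MDM2. The 2 starts differed. The ARF start lay under a region in every library, whereas the INK4a start lay under none. Both windows are shown for this contrast (RefSeq, GRCh38.p14, minus strand; ARF chr9:21995275-21995574 and INK4a chr9:21974808-21975107), with GGGCGG in capitals.
ARF start: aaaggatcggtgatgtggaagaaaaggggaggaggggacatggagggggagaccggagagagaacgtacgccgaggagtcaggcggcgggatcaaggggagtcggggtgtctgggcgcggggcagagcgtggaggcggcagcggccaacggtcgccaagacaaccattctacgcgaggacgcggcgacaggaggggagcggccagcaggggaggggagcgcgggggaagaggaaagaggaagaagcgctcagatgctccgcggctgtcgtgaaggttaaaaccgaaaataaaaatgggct
INK4a start: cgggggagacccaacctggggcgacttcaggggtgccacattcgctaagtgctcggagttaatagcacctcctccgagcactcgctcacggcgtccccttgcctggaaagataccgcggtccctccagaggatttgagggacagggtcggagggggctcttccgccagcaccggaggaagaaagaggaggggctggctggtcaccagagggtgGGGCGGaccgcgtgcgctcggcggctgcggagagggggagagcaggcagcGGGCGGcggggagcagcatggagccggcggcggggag
The ARF window held no GGGCGG and the INK4a window held 2, and neither held CCAAT. G and C made up 63.3% and 69.0% of the bases.

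The merged site over the ARF start spanned chr9:21993985-21996079. It was made of 1 to 3 regions in each library and covered 675 bp in SNDX-5613 replicate 3. It also covered the start of CDKN2B-AS1 (ANRIL), a noncoding RNA that runs the other way. Its strongest summit lay 121 bp past the annotated start at 21994873, not at the RefSeq start at 21995324 that is called the ARF start here. Annotated starts at 21994392 and 21994411 also lay under a region in all 6 libraries. Which of these starts ARF uses in these cells was not tested. In DMSO replicate 2 and SNDX-5613 replicate 3 a separate region covered the ARF start. That region had −log10 p of 27.2 and 8.43, beside 91.2 and 14.1 for the region ranked. Percentiles were 52.0, 62.2 and 66.2 in DMSO and 62.2, 48.5 and 58.0 in SNDX-5613. The groups overlapped, with means of 60.1 ± 7.35 and 56.2 ± 6.99 (SD, n = 3 each), a difference of −3.88 points and p = 0.6 in the exact permutation test. Without SNDX-5613 replicate 3 the difference was −2.72 points. Ranked by fold enrichment in place of −log10 p the difference was 8.28 points with the groups overlapping, so no direction is given.

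The INK4a start, at position 21974857, lay 12025 to 19361 bp from the nearest region of any library. It sat in a stretch free of regions in all 6 libraries that ran 150 kb, from 21836973 inside MTAP to 21986881 inside the first intron of the ARF transcript. Of the 13 annotated starts of CDKN2A, 8 lay under no region and 3 under a region in all 6. Stretches at least this long numbered 2280 in the series and covered 26.4% of the span between the first and last sites of the chromosomes, and 1225 protein-coding genes (6.11%) had an annotated start in one. A deletion of this stretch and closed chromatin both leave no peak and cannot be told apart in peak lists. The ARF and CDKN2B promoters on the one side and the MTAP promoter on the other had a peak in every library. CDKN2A-DT, a noncoding gene that adjoins the 3′ end of CDKN2A within the stretch, had none.

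An intronic site of CDKN2A was the single member site lost after treatment, called in all 3 DMSO libraries and in no SNDX-5613 library. Its 136 bases are shown whole, from the plus strand of hg38 at chr9:21986882-21987017, with the summit and 10 bases on each side in capitals.
Lost CDKN2A site: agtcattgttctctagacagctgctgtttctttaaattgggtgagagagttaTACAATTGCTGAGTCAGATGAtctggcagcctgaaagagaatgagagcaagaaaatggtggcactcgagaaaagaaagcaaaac
The site held 1 copy of ATTGG, the reverse complement of CCAAT, before the capitals. In windows of 151 bases CCAAT occurred on either strand at 22.4% of all shared sites and 18.5% of those outside protein-coding promoters. The capitals hold TGAGTCA, the consensus of AP-1 (other strand TGACTCA), which was searched after these bases were seen. In windows of 151 bases around the summit TGAGTCA occurred on either strand at 13.9% of all shared sites, 3.67% of shared promoter sites and 20.3% of the other shared sites, and at 2 of the 26 member sites, the lost site and the exonic site of CDKN1A. The lost site had −log10 p of 11.96, 31.4 and 14.6 and pileups of 14, 33 and 20 in DMSO replicates 1 to 3. In the own list of each library it stood at percentiles 37.6, 69.4 and 45.9, so it was above the middle in DMSO replicate 2 alone. Over its most common background, each of the 5 deeper libraries called peaks from 6 or 7 reads, and SNDX-5613 replicate 3 from 3. The treated libraries have no value at this site, so their pileups there are not known. Whether depth or the threshold bears on this loss was not tested. When the same number of regions was taken from every library, the site was no longer called in all 3 DMSO libraries. Other sites nearby were called in DMSO replicate 2 alone and in DMSO replicates 1 and 2 with SNDX-5613 replicate 1.

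CDKN2B encodes p15, an INK4 inhibitor induced by TGF-beta, next to CDKN2A. Its promoter site (chr9:22008664-22009658, summit 94 bp before the MANE start) had percentiles of 76.5, 81.7 and 82.3 in DMSO and 73.2, 74.4 and 89.0 in SNDX-5613. SNDX-5613 replicates 1 and 2 were below the DMSO libraries and replicate 3 above them. Means were 80.2 ± 3.21 and 78.9 ± 8.77 (SD, n = 3 each), with p = 0.8 in the exact permutation test. Without SNDX-5613 replicate 3 the groups no longer overlapped and the difference was −3.55 points, but limma without this library gave an adjusted p of 0.699.

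CDKN2C encodes p18 and, with CDKN1B, is a known menin target in endocrine cells. Its 2 shared promoter sites had the highest DMSO mean percentiles of the 9 shared promoter sites. The first of its starts, at 50960745, lay under a region in 1 library only. The site chr1:50959694-50960749, 480 bp before the first start and also at the start of FAF1, an apoptosis adaptor gene, had percentiles of 94.6, 90.6 and 92.4 in DMSO and 97.3, 96.6 and 87.9 in SNDX-5613. The groups overlapped through SNDX-5613 replicate 3, with a difference of 1.39 points (p = 0.7, exact permutation test). Without that library both treated libraries were above, by 2.45 points, and over each library's own list the difference was −1.51 points.

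The site further along, chr1:50968087-50970295, spanned the MANE start at 50970245 and had its summit 92 bp before a start at 50968706. The MANE start lay under a region in 5 libraries, and 1110 bp from the nearest region in SNDX-5613 replicate 3. Percentiles were 92.8, 82.0 and 90.8 in DMSO and 75.9, 84.1 and 90.5 in SNDX-5613. The groups overlapped, with a difference of −5.04 points (p = 0.4, exact permutation test), and without DMSO replicate 2, the lowest of its group, it was −8.32 points with the groups apart. Without SNDX-5613 replicate 3 the difference was −4.77 points with the groups overlapping. Ranked by fold enrichment it was 2.45 points, so no direction is given. A flank site 7184 bp past the MANE start differed by 6.18 points (p = 1, exact permutation test), and there SNDX-5613 replicate 3 alone was high at 61.4, while the other 5 libraries lay between 25.8 and 37.7. A neighbouring flank site was called in all DMSO libraries and SNDX-5613 replicate 1.

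CDKN2D encodes p19, the INK4 inhibitor that cycles through S phase. Its promoter site (chr19:10568592-10569392, 89 bp before the nearest start) had percentiles of 71.8, 74.7 and 72.5 in DMSO and 80.2, 70.5 and 93.7 in SNDX-5613. SNDX-5613 replicate 2 was below all DMSO libraries and the others above, so the groups overlapped, with means of 73.0 ± 1.53 and 81.5 ± 11.6 (SD, n = 3 each) and p = 0.4 in the exact permutation test. The difference of 8.44 points was 1.34 without SNDX-5613 replicate 3, and without SNDX-5613 replicate 2 it was 13.9 points with the groups apart. Flank sites at the starts of KRI1 and AP1M2 differed by −9.59 points (p = 0.2) and −2.51 points (p = 0.8), by the exact permutation test. A weaker flank site was called in the 5 deeper libraries alone.

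The order of the 9 shared promoter sites in DMSO ran from the CDKN2C sites at 92.5 ± 2.01 and 88.5 ± 5.79, through CDKN2B at 80.2 ± 3.21, the upstream CDKN1B site at 79.9 ± 1.93, the main CDKN1B promoter at 77.3 ± 9.89 and CDKN2D at 73.0 ± 1.53, to CDKN2A at 60.1 ± 7.35, CDKN1A at 52.7 ± 1.84 and CDKN1C at 28.2 ± 8.42 (SD, n = 3 each). The CDKN2A site here is the merged site over the ARF start, as INK4a had no peak to rank. Only 2 neighbours in this order by percentile did not overlap: CDKN2A lay below CDKN2D, and CDKN1C below CDKN1A. The order depended on the measure. Summit pileup over the library median gave CDKN2D a mean log2 value of 1.401 in DMSO. CDKN2B had 1.089 and the upstream CDKN1B site 0.932, and CDKN2D was above both in every DMSO library. The 2 CDKN2C sites changed places, at 1.603 and 1.665. CDKN2A, CDKN1A and CDKN1C were lowest on both scales, in the same order. The median DMSO percentile of all shared protein-coding promoter sites was 76.7, and the mean percentiles of CDKN2D, CDKN2A, CDKN1A and CDKN1C stood below it. After treatment the mean of CDKN1A, at 75.9, was close to that median.

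**Figure D4:**
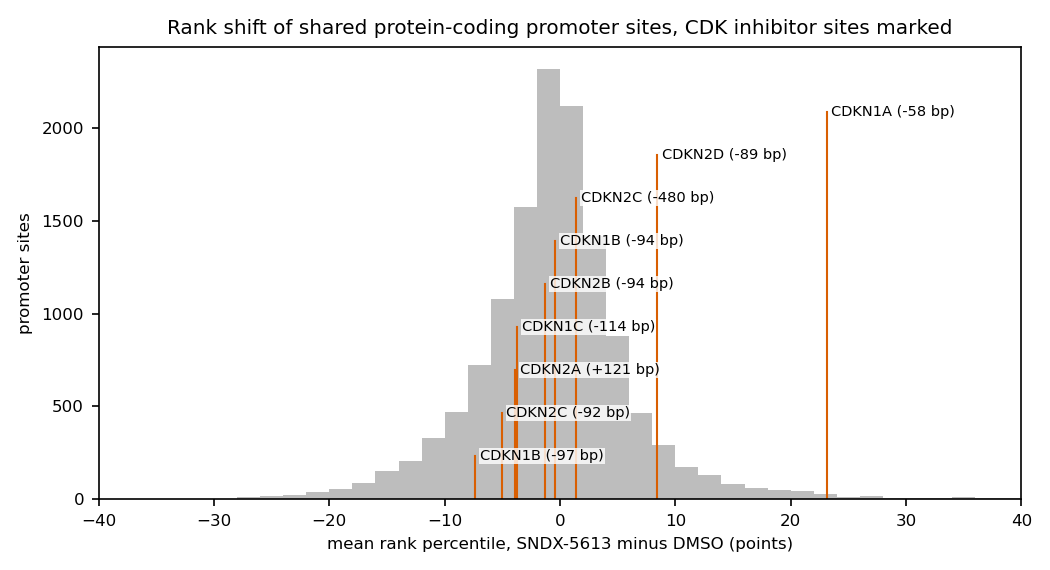
Distribution of the difference in mean percentile, SNDX-5613 minus DMSO (horizontal axis, percentile points), over the 12898 shared protein-coding promoter sites (vertical axis, number of sites), with the 9 shared promoter sites of the CDK inhibitor genes as lines whose height has no meaning. The CDKN1A promoter stands at 23.1 points, where 5% of promoter sites lie above 9.85, and the other lines lie between −7.34 and 8.44.

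The partners that these inhibitors act on were read at 1 promoter site per gene. Of 21 genes of the G1/S step (CDKs, cyclins, retinoblastoma family, E2F factors and regulators), 20 had a shared promoter site, and 0 were higher and 0 lower in all 3 treated libraries, where 7.05% and 8.1% of all shared promoter sites were. They had a median difference of −0.45 points beside −0.49 over shared promoter sites. CCND2, a D-type cyclin, was the one without a shared site. The targets of the INK4 proteins, CDK4 and CDK6, had means of 94.0 ± 2.40 and 35.3 ± 9.88 in DMSO and 93.6 ± 2.23 and 31.7 ± 6.79 in SNDX-5613 (SD, n = 3 each), so the groups overlapped at both. Of 11 genes around CDKN2A and CDKN2B on chromosome 9, 8 had a promoter site in all 6 libraries, with 1 higher (ELAVL2, by 23.4 points) and 1 lower (DMRTA1, with means of 72.2 in DMSO and 61.4 in SNDX-5613), against the same 7.05% and 8.1%, and limma gave adjusted p of 0.177 and 0.539. In neither list did the site read for a gene pass the limma threshold.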

How the data were processed

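ATAC-seq peaks of 6 libraries were read as deposited. Per the submitters' processing notes, the authors used Trim Galore 0.6.7, Bowtie2 2.3.4.1, Picard 2.20.0, SAMtools, MACS2 and deepTools 3.5.4 on hg38. The deposited peak lists, called per library by the authors, give for each summit a fold enrichment (a ratio of pileup to local background), −log10 p and −log10 q. Deposited score columns were not used. The authors' consensus sets of each group served only to count presence. Read counts were not analysed here, so the study's count model was not fitted, and depth was read from the background pileup.

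Summits sharing a region were merged, keeping the strongest, and regions of the 6 libraries sharing at least 1 bp were merged into sites on chromosomes 1 to 22, X and Y. Region ends fitted hg38 on all 24 chromosomes. Whole pileups were recovered from the fold and −log10 p (100% of summits, within 0.002 in −log10 p). Percentiles were compared by an exact two-sided permutation test and by limma 3.58.1 (R 4.3.3) on normal scores, with Benjamini-Hochberg adjustment over all shared sites and a threshold of 0.05. The pileup recovery and the limma fit were tested on simulated data. The limma simulation first recovered none of its planted shifts, and their sizes were then raised, so a count of 0 calls says little about shifts as small as those measured here. Promoter sequences are from RefSeq (GRCh38.p14), and 9 of 9 windows were equal to hg38.

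The members and gene lists were chosen with earlier results of these data known. Named are the 7 genes, the strongest promoter site of each, and each other site that did not overlap between groups or was gained or lost. Alternatives were other ranked values, thresholds, overlaps, weights, a replicate block and leaving out each library.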

Additional observations from a re-analysis of the deposited data

How the results depend on the processing

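With peaks required to cover 50% of a site, 2 member sites did not overlap between groups (9 sites were shared) and 4 of the 7 genes had a promoter peak in all 6 libraries. The count of 4 sites without overlap ran from 4 to 6 when each library was left out. Those settings compare 2 libraries with 3, where groups separate more readily, and without SNDX-5613 replicate 3 there were 18 shared sites. No share over all shared sites is given for them or for 50% cover, so these counts do not show stability. With an equal number of regions per library, 0 member sites were gained or lost. Leaving out each library gave 1 to 2, and the 2 came without SNDX-5613 replicate 1, when a CDKN2C flank site was also lost. Genes with a shared promoter peak stayed at 7 when libraries were left out. In limma, 0 member sites were called in any of 13 alternatives, with a lowest member adjusted p of 0.0678 to 0.883. Over all sites limma called 59 higher and 6 lower, against 198 and 58 with library weights, 496 and 67 by pileup, 12 and 2 with 50% cover, 52 and 3 with −log10 q of at least 3, 1 and 0 over each library's own list, and 0 to 3 higher and 0 lower when a library was left out. Ranked by fold it called 0, with 2397 sites at an unadjusted p under 0.05. The causes were not tested.

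With a replicate block, limma called 3 sites higher and 0 lower, 0 of them members (lowest member adjusted p = 0.325). Same-numbered libraries deviated with correlations of 0.000532 to 0.0164, so the numbers were not taken as pairs. The CDKN1A promoter and the upstream CDKN1B promoter kept their direction in 10 of 10 alternatives each, and the main CDKN1B promoter in 6 of 10. These alternatives include leaving out each library in turn, so they are not independent. At the CDKN1A and upstream CDKN1B promoters the groups did not overlap to begin with. Leaving out a library could therefore hardly reverse their direction, and those settings lend it no weight. The cover requirement is not among them, because under it none of these promoter sites was still shared by all libraries. Peak lists bound what can be seen: a site below the threshold has no value, so the shallow SNDX-5613 replicate 3, which calls a peak at 3 reads over its background, limits which sites are shared, and 3 libraries per group limit the exact test.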
